A study of Rattus norvegicus with 17 samples.

Results

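The 10 genes described here, Ptprc, Lcp1, Laptm5, Csf1r, Tyrobp, Mrc1, Cd68, C1qa, C1qb and Cd74, are markers of leukocytes, and several of them of macrophages in particular. Every array probe set that the platform annotates to 1 of these genes alone was taken, which gave 12 probe sets among 20826 that carry 1 gene, or 10 genes among 14217. The rule for taking probe sets rests on the platform annotation and on no measured value. The 10 genes themselves were chosen with earlier results of these data known. Ptprc and Laptm5 have a second probe set each, and the others have 1.

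The study asked which transcripts of the fetal gubernaculum, the ligament that guides the testis during its descent, respond to Insl3 (insulin-like 3), a hormone that Leydig cells of the fetal testis secrete. Gubernacula came from male Long Evans rat fetuses at gestational day 17, and each biological replicate was a pair of bulbs (2 per replicate) kept in organ culture. All groups spent a first 24 h in hormone-free medium and a second 24 h in medium without hormone (control, 6 arrays), with 10 nM Insl3 (3 arrays used) or with 100 nM Insl3 (6 arrays). Each replicate gave 150 ng of total RNA to 1 Affymetrix 3′ expression array. The labels name no mutant allele and no agent other than Insl3. Replicates 4 and 5 at 10 nM were judged outliers by the submitters, partly for cRNA yields of 25.66 and 33.68 µg, and were kept out of the comparisons. The RNA integrity number was 10 wherever it was given, and it was not determined for 10 nM replicates 1 and 2.

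Macrophages enter fetal organs early, from progenitors of the yolk sac and fetal liver, and clear dying cells while tissues are reshaped. Their growth and survival depend on signals through the receptor Csf1r, and their identity is usually read from surface receptors, lysosomal proteins and complement components of the kind listed above. Some of the genes, such as Ptprc and Lcp1, are shared by nearly all leukocytes, so their level does not by itself tell a macrophage from another white cell.

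Signals are GCRMA values on a log2 scale, so a difference of 1 is a doubling of signal, and the lowest possible value on these arrays is near 2.11. Tests are limma's moderated test over 18938 probe sets with Benjamini-Hochberg adjustment, and a gene is called where its adjusted p is under 0.05. Correlations between pairs of kept arrays lay between 0.978 and 0.996, and the number of arrays limits the precision. Group means are given with SDs and log2 changes with limma's standard errors. Where a gene has a pair of probe sets, the one with the higher mean stands for the gene. Because whole bulbs were measured, fewer cells of a type and less RNA per cell cannot be told apart in any result below.

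After 24 h at 100 nM Insl3, 4 of the 10 marker genes fell and none rose, against 4.39% of all tested probe sets that fell, 6.51% that rose and 10.9% called either way. The 4 were Lcp1, which bundles actin in leukocytes, Ptprc, the CD45 phosphatase of leukocyte membranes, Mrc1, the macrophage mannose receptor, and Cd68, a glycoprotein of macrophage lysosomes. Their signals were 1.45 to 1.64-fold lower than in control cultures. Of the other 6 genes, 5 had lower means at 100 nM without passing the test, and Cd74 had a slightly higher one. The median log2 change over the 10 genes was -0.37, with a range of -0.71 to 0.07, beside -3e-04 over all tested probe sets. At 10 nM none of the 10 genes was called against control, where 10.6% of probe sets were, and none was called between 100 and 10 nM, where 1.43% were. In limma 1 and 4 of the 10 genes had an unadjusted p under 0.05 in these comparisons. Of all 18938 tested probe sets 4507 and 2324 did.

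The count of 4 depended on single arrays. Leaving out 1 of the 15 arrays at a time gave 2 to 4 called genes, and it was 2, Lcp1 and Ptprc, without control replicate 4, control replicate 5, 100 nM replicate 2 or 100 nM replicate 6. Within replicates 1, 2 and 6 alone no marker gene was called, and within replicates 3, 4 and 5 alone Lcp1 and Mrc1 were. Of all 18938 tested probe sets 200 and 1691 were called in these subsets, beside 2065 in the full fit. These sets of replicates come from a division seen in an earlier analysis of these data, and the labels name no batch for it.

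**Figure D1:**
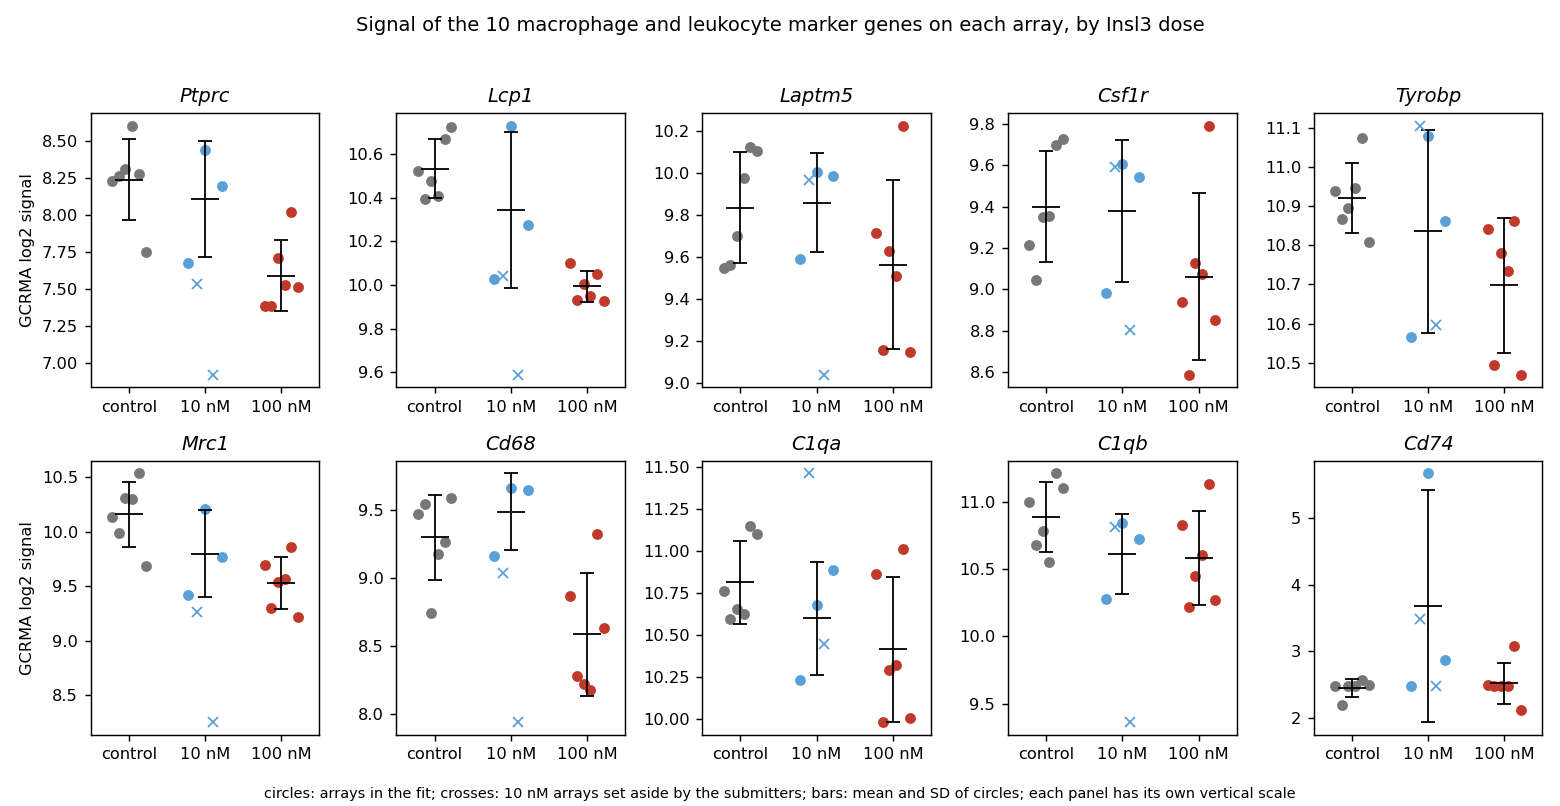
GCRMA log2 signal (vertical axis, a separate scale in each panel) of the 10 marker genes in control, 10 nM and 100 nM cultures; circles are arrays in the fit, crosses the 10 nM arrays set aside by the submitters, and bars the mean and SD of the circles. All 6 Lcp1 values at 100 nM lie below all 6 control values. For Cd68 the 100 nM replicates 1 and 5 overlap the controls, and replicate 5 lies above the controls for Laptm5 and Csf1r.

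Among the genes shared by all leukocytes, Lcp1 (L-plastin, probe set 1389210_at) gave the clearest separation. Its lowest, median and highest log2 signals were 10.40, 10.50 and 10.72 in controls, the 10 nM replicates 1 to 3 read 10.03, 10.73 and 10.27, and the 100 nM arrays ran over 9.93, 9.98 and 10.10. Every 100 nM array was below every control array, which held for 1.48% of tested probe sets, and the 10 nM arrays spanned both groups. The mean was 9.99 ± 0.07 at 100 nM and 10.53 ± 0.14 in controls (SD, n = 6 each). That is a log2 change of -0.54 ± 0.10, with a 95% interval of -0.75 to -0.32 and an adjusted p of 0.00407 (limma). Lcp1 was called in each of the 15 fits that left out an array, with adjusted p between 0.000515 and 0.0117. It lost the call within replicates 1, 2 and 6 alone, where its change was -0.56 with an adjusted p of 0.215, the highest over the alternatives, of which the lowest was 0.000655.

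Ptprc (CD45, probe set 1390798_at) encodes the tyrosine phosphatase that sets the threshold of signalling in white cells. Its lowest, median and highest signals were 7.75, 8.27 and 8.60 in controls, 10 nM replicates 1 to 3 read 7.68, 8.44 and 8.20, and the 100 nM arrays ran over 7.39, 7.52 and 8.02. At 100 nM 5 of the 6 arrays were below all controls, and replicate 5, at 8.02, lay above only control replicate 6. The mean was 7.59 ± 0.24 at 100 nM and 8.24 ± 0.27 in controls (SD, n = 6 each), a fall of 1.57-fold (log2 change -0.65 ± 0.16, adjusted p = 0.0174, limma). The call held in all 15 fits that left out an array, up to an adjusted p of 0.0423. It was lost with all 17 arrays (0.0916) and within either set of replicates (0.225 and 0.0696), with changes of -0.65, -0.65 and -0.64. Over the alternatives other than single arrays left out, adjusted p ran over 0.00787 to 0.32. A second probe set, 1370603_a_at, read 3.86 ± 0.49 at 100 nM and 4.12 ± 0.37 in controls, with a change of -0.26 that was not called (adjusted p = 0.514). Its interval of -0.76 to 0.23 holds the change of the first probe set.

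The sequence before the start of Ptprc is shown because purine-rich stretches are a common feature of promoters active in myeloid cells. It lies at chr13:52259811-52259996 on the minus strand of the rat assembly GRCr8 (RefSeq) and was kept to the 186 bases outside the gene, written 5′ to 3′ on the gene's strand. Capitals mark matches to GAGGAA and to GGAAGT on either strand.
Ptprc: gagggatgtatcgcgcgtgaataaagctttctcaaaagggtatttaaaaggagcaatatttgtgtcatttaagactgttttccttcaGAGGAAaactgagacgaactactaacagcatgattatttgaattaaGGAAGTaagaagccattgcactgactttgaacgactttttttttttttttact
Promoter sequence was found for 8 of the 10 genes, all but Tyrobp and Lcp1, and the 250 bases before the start that the promoter table gives were searched on both strands. For Ptprc that window runs past the 186 bases printed, into the annotated gene. The letters GAGGAA occurred in 7 of these 8, in all but C1qa, and in 23.2% of 27457 promoters. GGAAGT occurred in 6 of the 8 (Ptprc, Mrc1, Cd68, C1qa, C1qb and Laptm5) and in 19.5% of all. Both motifs were chosen after the sequences had been looked at, they share the letters GGAA, and a match describes letters and shows no binding. Other letters searched were TGACTCA, found in Cd68 and in 3.98% of promoters, TATAAA, found in Laptm5 and in 13.1%, and CACGTG, found in none of the 8 and in 5.795% of all.

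Laptm5, a lysosomal membrane protein of blood-forming and immune cells, has 2 probe sets, and both had lower means at 100 nM than in controls without being called. By 1383658_at its lowest, median and highest signals were 9.55, 9.84 and 10.12 in controls, 10 nM replicates 1 to 3 read 9.59, 10.00 and 9.99, and the 100 nM arrays ran over 9.14, 9.57 and 10.23. At 100 nM replicate 5 was the highest of all 15 arrays, and the 10 nM arrays lay inside the range of the controls. The change at 100 nM was -0.27 ± 0.18 (adjusted p = 0.36, interval -0.65 to 0.11). By 1368006_at the mean was 9.32 ± 0.26 at 100 nM and 9.75 ± 0.24 in controls, a change of -0.43 ± 0.15 (adjusted p = 0.0776). Without 100 nM replicate 5 this probe set passed, at -0.52 with an adjusted p of 0.0379, in a range of 0.0379 to 0.148 over the arrays left out.

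Csf1r, the receptor for the macrophage growth factors Csf1 and Il34, ran over 9.04, 9.35 and 9.73 in controls (lowest, median, highest), its 10 nM replicates 1 to 3 read 8.98, 9.60 and 9.54, and the 100 nM arrays ran over 8.59, 9.01 and 9.79. Of the 100 nM arrays 3 were below all controls, and replicate 5 was above them all, so the groups overlapped. The change of -0.34 ± 0.19 was not called (adjusted p = 0.276, interval -0.74 to 0.06). Csf1, named here as its ligand, read 5.52 ± 0.55 at 100 nM and 6.10 ± 0.21 in controls, a change of -0.58 ± 0.23 that was not called either (adjusted p = 0.122). The other ligand, Il34, was below the filter on low values.

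Tyrobp (DAP12), the adaptor that passes signals of activating receptors to the kinase Syk, had the smallest standard error of the 10 genes. Controls ran over 10.81, 10.92 and 11.07 (lowest, median, highest), 10 nM replicates 1 to 3 read 10.56, 11.08 and 10.86, and the 100 nM arrays ran over 10.47, 10.76 and 10.86. At 100 nM 4 of 6 arrays were below all controls. The change was -0.22 ± 0.09, with a 95% interval of -0.43 to -0.02 before adjustment and an adjusted p of 0.148 (limma).

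Mrc1, the mannose receptor (CD206) with which macrophages take up glycoproteins, and Cd68, the lysosomal glycoprotein macrosialin, fell at 100 nM. For Mrc1 (1392648_at) the controls ran over 9.68, 10.22 and 10.54 (lowest, median, highest), the 10 nM replicates 1 to 3 read 9.42, 10.21 and 9.77, and the 100 nM arrays ran over 9.22, 9.55 and 9.86. At 100 nM 4 of 6 arrays were below all controls, and 5 of 6 controls were above all 100 nM arrays. The mean was 9.53 ± 0.24 at 100 nM and 10.16 ± 0.30 in controls (SD, n = 6 each), which was 1.55-fold lower (log2 change -0.63 ± 0.16, adjusted p = 0.0237, limma). The call was lost in 5 of the 15 fits that left out an array, where adjusted p reached 0.0538, and with no filter on low values (0.0548). With all 17 arrays its adjusted p was 0.167, and over the alternatives other than single arrays left out it ran over 0.0128 to 0.33.

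For Cd68 (1375010_at) the controls ran over 8.74, 9.37 and 9.59 (lowest, median, highest) and the 10 nM replicates 1 to 3 read 9.16, 9.66 and 9.64. The 100 nM arrays ran over 8.18, 8.46 and 9.32, with 4 of 6 below all controls and replicates 1 and 5 inside their range. The mean was 8.58 ± 0.45 at 100 nM and 9.30 ± 0.31 in controls (SD, n = 6 each), which was 1.64-fold lower (log2 change -0.71 ± 0.20, adjusted p = 0.038, limma). This call was the least stable of the 4. It was lost in 9 of the 15 fits that left out an array, with adjusted p up to 0.082, and also with no filter (0.0852), with the 2 compared groups alone (0.0588), with all 17 arrays (0.152), within replicates 1, 2 and 6 (-0.94, adjusted p = 0.079) and within replicates 3, 4 and 5 (-0.49, adjusted p = 0.418). Over the alternatives other than single arrays left out, its adjusted p ran over 0.0267 to 0.418. Cd68 was also the marker gene with the lowest adjusted p between the doses, at -0.90 ± 0.25 for 100 nM against 10 nM (adjusted p = 0.0926), and this passed without 100 nM replicate 5 (-1.05, adjusted p = 0.014, in a range of 0.014 to 0.42 over the arrays left out).

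The stretches before the starts of Mrc1 and Cd68 are shown as the other called genes with a promoter sequence. They lie at chr17:82157475-82157724 on the plus strand and at chr10:54882442-54882691 on the minus strand of GRCr8 (RefSeq), 250 bases each, written 5′ to 3′ on the gene's strand. Capitals again mark GAGGAA and GGAAGT, which read TTCCTC and ACTTCC on the other strand.
Mrc1: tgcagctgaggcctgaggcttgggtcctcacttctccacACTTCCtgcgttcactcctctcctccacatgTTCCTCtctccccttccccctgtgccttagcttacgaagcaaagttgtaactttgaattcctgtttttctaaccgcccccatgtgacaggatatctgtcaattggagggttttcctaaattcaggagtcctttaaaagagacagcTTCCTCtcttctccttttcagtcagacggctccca
Cd68: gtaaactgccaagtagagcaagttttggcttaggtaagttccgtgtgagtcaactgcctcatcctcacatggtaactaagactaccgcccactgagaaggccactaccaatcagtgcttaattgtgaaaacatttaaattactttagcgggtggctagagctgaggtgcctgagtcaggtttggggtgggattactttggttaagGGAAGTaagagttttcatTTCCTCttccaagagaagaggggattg
Mrc1 holds 2 matches to GAGGAA and 1 to GGAAGT, and Cd68 holds 1 of each. Both of the Cd68 matches lie in the last part of the window, nearest the start, whereas those of Mrc1 are spread along it.

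C1qa and C1qb encode chains of C1q, the recognition part of the classical complement pathway that macrophages secrete. With C1qc they neighbour each other on chromosome 5 in the GRCr8 gene table. C1qa ran over 10.60, 10.71 and 11.15 in controls (lowest, median, highest), read 10.23, 10.68 and 10.89 in 10 nM replicates 1 to 3, and ran over 9.98, 10.31 and 11.02 at 100 nM. C1qb ran over 10.55, 10.89 and 11.21 in controls, read 10.28, 10.84 and 10.72 at 10 nM, and ran over 10.22, 10.53 and 11.13 at 100 nM. In both genes 100 nM replicates 1 and 5 lay within the range of the controls and replicates 2, 3 and 6 lay below it. Replicate 4 lay below it for C1qa and within it for C1qb. Neither change at 100 nM was called, with -0.40 ± 0.19 for C1qa (adjusted p = 0.201) and -0.30 ± 0.17 for C1qb (adjusted p = 0.272). C1qc, the third chain, showed -0.31 ± 0.24 (adjusted p = 0.436).

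Cd74, the invariant chain that guides class II molecules of antigen presentation and also binds the cytokine Mif, was near the floor of the arrays in nearly all cultures. Its lowest, median and highest values were 2.19, 2.48 and 2.58 in controls, 10 nM replicates 1 to 3 read 2.48, 5.68 and 2.88, and the 100 nM arrays ran over 2.11, 2.48 and 3.08. Only 10 nM replicate 2 stood far above the other 14 arrays. The change at 10 nM was 1.23 ± 0.49 (adjusted p = 0.139, limma), and without replicate 2 it was 0.23. Without replicate 1, whose value was at the control level, it was 1.83 with an adjusted p of 0.0404, in a range of 0.0404 to 0.585 over the arrays left out.

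On 10 nM replicate 2 other transcripts also stood apart. There were 15 probe sets more than 1 log2 unit above every other kept array, beside 0 to 51 on each of the other 14 arrays. Cd74 had the third-largest gap, after Lcn2 (lipocalin 2, 9.41 on this array against at most 6.62 elsewhere) and C3 (complement C3, 6.47 against at most 3.84). The chemokine gene Ccl4 and the interferon-induced genes Isg15 and Ifit2 were among the 15, and these genes were named after their values were seen. The RNA integrity number of this array was not determined, and the part of RNA quality in these values was not tested.

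**Figure D2:**
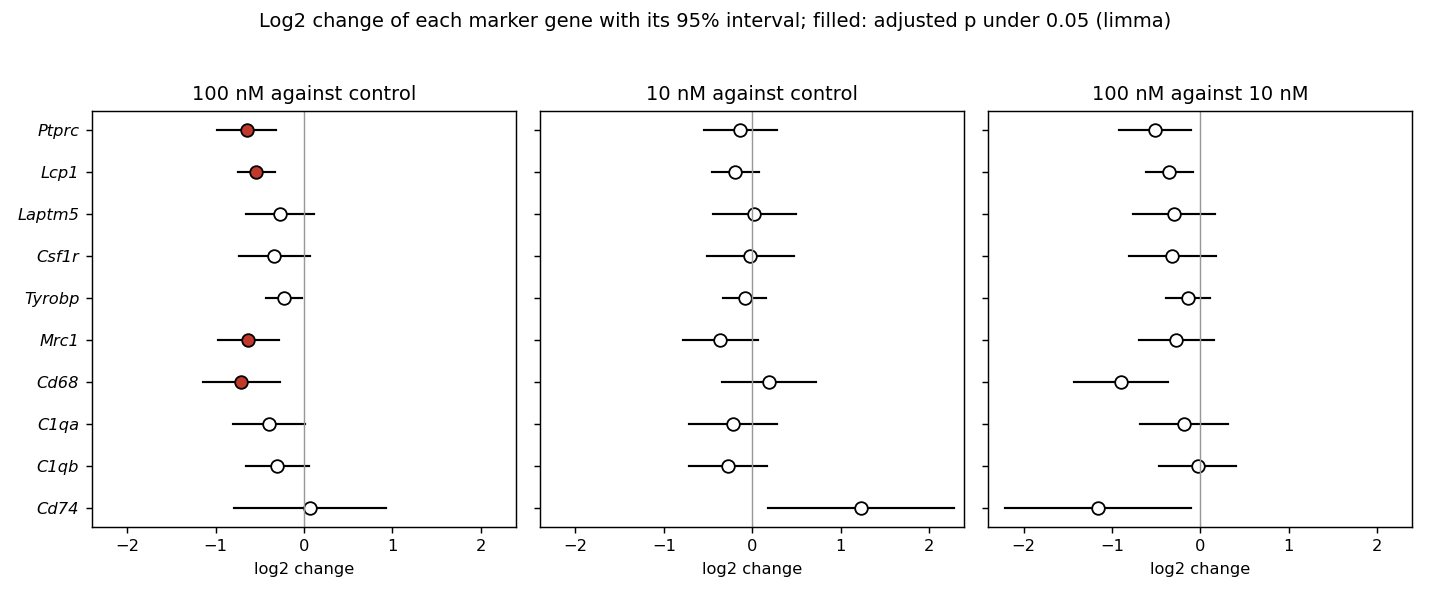
Log2 change (horizontal axis) of each marker gene with its 95% interval in 3 panels, 100 nM against control, then 10 nM against control, then 100 nM against 10 nM; filled points have an adjusted p under 0.05 in limma. Only Ptprc, Lcp1, Mrc1 and Cd68 are filled, all in the comparison of 100 nM with control, and the Cd74 intervals for 10 nM are wide, with replicate 2 far above the other 2 arrays at that dose.

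At 10 nM the marker genes did not all change in the same direction against control, and none was called. Of the 10 changes 7 were negative, beside 43% over all tested probe sets, with a median of -0.11 beside 0.03 over all probe sets. In limma 1 gene, Cd74, had an unadjusted p under 0.05, as did 4507 of the 18938 tested probe sets. In that comparison 5.70% of all probe sets fell and 4.88% rose. Mrc1 had the largest negative change, -0.36 ± 0.20 (adjusted p = 0.298), and Lcp1 showed -0.19 ± 0.12 (adjusted p = 0.382), or -0.38 with an adjusted p of 0.035 without 10 nM replicate 2 (0.035 to 0.933 over the arrays left out). For 100 nM against 10 nM, with both doses in 1 fit, all 10 changes were negative, beside 56% over all tested probe sets. Their median was -0.31 beside -0.02 over all probe sets. In limma 4 of the 10 had an unadjusted p under 0.05, as did 2324 of the 18938 tested probe sets. None of the 10 genes passed the adjusted test in that comparison, in which 0.195% of probe sets fell and 1.24% rose. Ptprc had -0.51 ± 0.19 (adjusted p = 0.251, interval -0.92 to -0.10) and Lcp1 -0.35 ± 0.12 (adjusted p = 0.214, interval -0.61 to -0.09). The 10 nM group has 3 arrays, and these 3 comparisons share arrays.

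Levels of the 10 genes varied together across the 10 nM and the 100 nM arrays, and less uniformly across the controls. At 10 nM, replicate 1 was the lowest of the 3 arrays in all 10 genes and replicate 2 the highest in 9. At 100 nM, replicate 5 was the highest of 6 in 9 genes, all but Lcp1, whereas replicate 6 was lowest in 5 and replicate 2 in 4. Control replicate 5 was the highest control in 6 genes. Control replicate 6 was the highest control in 3 genes (Lcp1, Cd68 and Csf1r) and the lowest in 3 others (Ptprc, Mrc1 and Tyrobp). Averaged over the 10 genes, the log2 signal was 9.34 in 100 nM replicate 5 and 8.58 to 8.97 in the other 100 nM arrays, against 9.11 to 9.46 in controls. The arrays at 10 nM spanned 8.84 to 9.69, wider than the controls. The 9.69, in replicate 2, was raised by Cd74, which read 5.68 there against at most 3.08 on any other kept array.

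**Figure D3:**
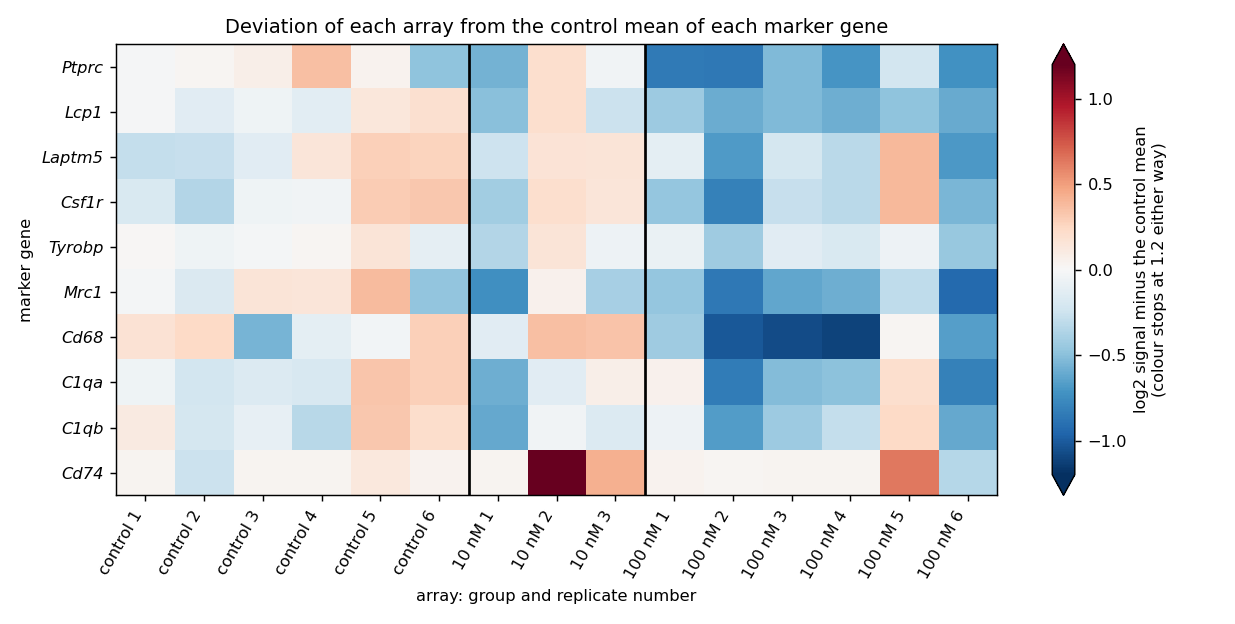
Log2 signal of each of the 15 kept arrays minus the control mean of the gene (colour, stopping at 1.2 either way), with marker genes down the page and arrays across it by dose. Most cells at 100 nM are below the control mean, apart from several of replicate 5. At 10 nM replicate 1 is below it in nearly all genes. Replicate 2 is above it in most genes but not in C1qa and C1qb, and far above it only in Cd74.

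Described over the 15 arrays as deviations from the group means, each marker gene correlated with the mean of the other 9 at Pearson's r of 0.52 (Cd68) to 0.87 (Tyrobp). Ptprc, at 0.53, was as loosely tied as Cd68, and Csf1r, C1qa, C1qb and Laptm5 lay between 0.80 and 0.85. Among 10647 other tested genes, the 8 most like the mean of the markers were Fcer1g (r = 0.94, rho = 0.86), C1qc (0.92, 0.93), Fcgr1a (0.92, 0.88), Gpnmb (0.91, 0.89), Arhgap30 (0.91, 0.83), Serping1 (0.89, 0.90), Lgmn (0.89, 0.89) and Icam1 (0.89, 0.89). Without the 2 arrays farthest from the median these r were 0.83 to 0.90. Fcer1g and Fcgr1a encode parts of receptors for antibodies, and Gpnmb and Lgmn a lysosomal glycoprotein and a lysosomal protease. These points share arrays and normalization, and the genes are the highest of many, so the values are a description. Of these 8, Gpnmb (-0.59 ± 0.11, adjusted p = 0.00444), Arhgap30 (-0.83 ± 0.24, 0.0405) and Lgmn (-0.54 ± 0.13, 0.0192) fell at 100 nM, whereas Fcer1g showed -0.14 (0.604) and Serping1 -0.03 (0.949).

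Wider lists were read beside the 10 genes for 100 nM against control. In the 8 lists tied to these genes, counting each gene once, 8 of 82 tested genes rose and 10 fell (9.76% and 12.2%), beside 6.51% and 4.39% of all tested probe sets. Where a list of 6 to 14 tested genes holds a single call, nothing is read from it about the list. Of the pan-leukocyte list 17 of 19 genes on the array were tested, with 4 lower and 1 higher and a median log2 change of -0.36. Cd52, a small surface glycoprotein of leukocytes, was 7.02-fold lower, at 6.79 ± 1.28 at 100 nM and 9.60 ± 1.15 in controls (adjusted p = 0.0126). Arhgap30, Inpp5d, the lipid phosphatase SHIP1 (-0.67, adjusted p = 0.00837), and Fermt3, the integrin activator kindlin-3 (-0.46, 0.0158), fell as well. Lsp1, an actin-binding protein, rose by 0.57 (adjusted p = 0.0376).

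In the list of macrophage surface and scavenger receptors 14 of 19 genes on the array were tested. All 14 changes were negative with a median of -0.35, beside 50.2% of changes negative over all tested probe sets. Of the 14 genes 1, the folate receptor gene Folr2, fell (-0.66 ± 0.19, adjusted p = 0.0369). Cd163, Cx3cr1, Itgam, Cd4 and Ccr2 were below the filter. Among 8 tested partners of Tyrobp and parts of Syk signalling, the phosphatase Ptpn6 (SHP-1) fell by 0.71 and the adaptor Blnk fell by 0.55 (adjusted p = 0.0108 and 0.00895), with a list median of -0.20. None of the 5 tested growth factor and receptor genes was called, with a median of -0.27.

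Lists tied to the functions of the marker genes were mixed. In phagosome and lysosome genes, which most cell types express, 4 of 18 rose (Ctsk, Laptm4b, Cd63 and Hexa, by 0.22 to 0.39) and 2 fell (Gpnmb and Lgmn), with a median of -0.01. Of 7 complement genes 1 rose, Cfd, the protease factor D, at 8.13 ± 0.32 at 100 nM and 6.11 ± 0.55 in controls (adjusted p = 0.000161), and it rose at 10 nM too, by 1.49 (adjusted p = 0.00555). In class II antigen presentation 1 of 6 rose, Mif (0.48, adjusted p = 0.0238). The class II genes RT1-Ba, RT1-Bb and RT1-Db1 and their regulator Ciita were below the filter, whereas Cd74 passed it with most values near the floor. Of 8 chemokines Cx3cl1 rose by 0.45 and Cxcl12 fell by 0.55 (adjusted p = 0.00903 and 0.0364). At 10 nM the only called genes of these 8 lists were Cfd, C1s (0.51, adjusted p = 0.029), Ctsk, Hexa and Cd63, which all rose. These are 5 of 82 tested genes, or 6.1%, beside 10.6% of all probe sets called and 4.88% that rose.

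**Figure D4:**
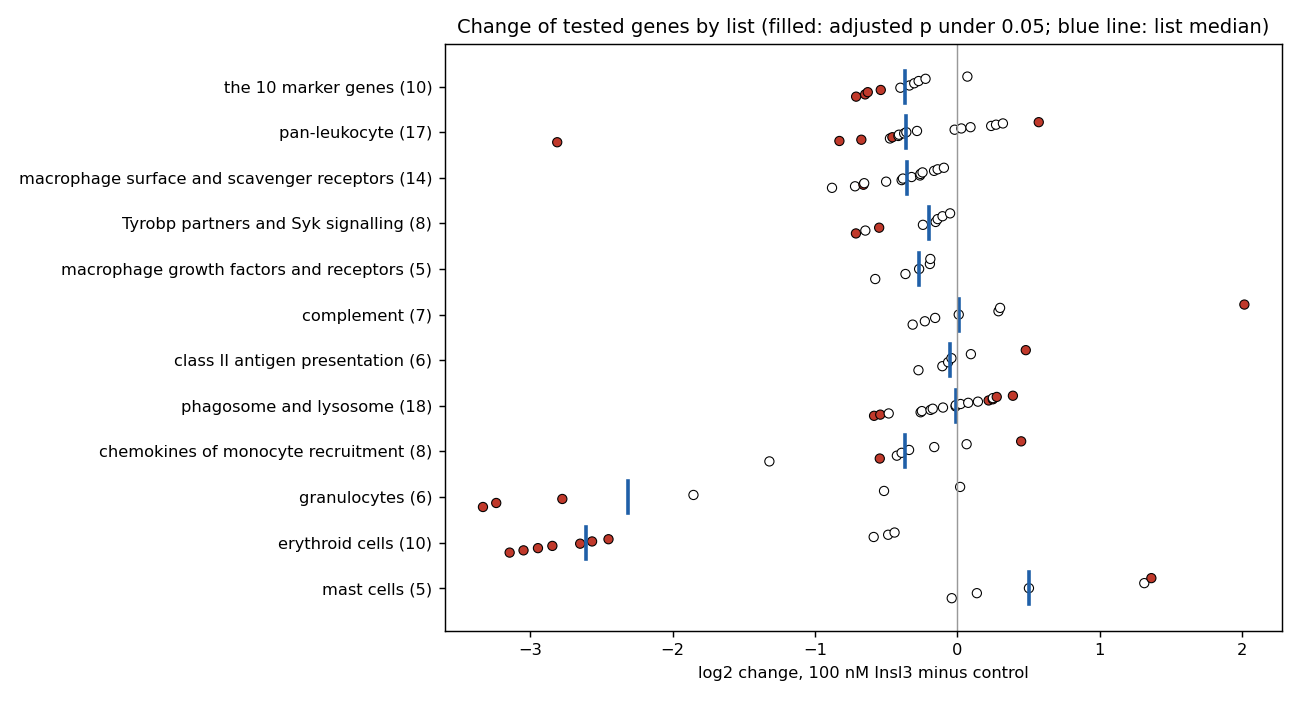
Log2 change at 100 nM against control (horizontal axis) of every tested gene of each list, with the number tested in brackets; filled points have an adjusted p under 0.05 in limma and the blue line is the list median. The marker genes and the pan-leukocyte and surface receptor lists have medians of -0.37, -0.36 and -0.35, and erythroid and granulocyte markers lie much lower.

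Markers of other blood cells moved in the same comparison. Of 10 tested erythroid markers 7 fell at 100 nM and none rose, with a median log2 change of -2.61. Their mean log2 signal was 6.15 ± 0.82 at 100 nM and 8.27 ± 0.94 in controls (SD, n = 6 each), and their summed linear signal ranged over 42826 to 104770 at 100 nM and 91621 to 124705 in controls. Of 6 tested granulocyte markers 3 fell, Prg2, S100a9 and S100a8 (-3.33, -3.24 and -2.77), with summed signals of 65 to 930 at 100 nM and 794 to 10003 in controls. The 10 marker genes summed to 6692 to 11152 at 100 nM and 9755 to 12791 in controls.

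At 100 nM the array with the lowest erythroid mean, replicate 1 at 5.16, had a marker mean of 8.97, the second-highest of that group. Replicate 2, with the lowest marker mean, had an erythroid mean of 5.54, and replicate 5, with the highest, had 5.90. With the erythroid mean as a covariate 2 of the 10 genes were called, Lcp1 (-0.66, adjusted p = 0.0397) and Cd68 (-1.19, 0.0399), whereas Ptprc (-0.49, 0.32) and Mrc1 (-0.56, 0.282) were not. Calls over all 18938 tested probe sets fell as well, from 2065 without the covariate to 633 with it. The erythroid mean ran over 5.16 to 7.51 at 100 nM and 7.18 to 9.39 in controls, so this fit separates it poorly from dose. Standard errors rose from 0.16 to 0.25 for Ptprc and from 0.16 to 0.26 for Mrc1. Whether erythroid content had a part in the lost calls cannot be told from this fit. The part of granulocytes in the fall of the pan-leukocyte genes was not tested.

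Most lymphocyte markers were below the filter. Of 11 T and NK cell genes on the array only Lck, a kinase of T cell receptor signalling, passed it, at 5.12 ± 0.31 at 100 nM and 5.25 ± 0.28 in controls (adjusted p = 0.63), and Cd3d, Cd3e and Cd3g did not. None of the 4 B cell genes on the array (Cd79b, Ms4a1, Blk and Cd22) passed the filter. In mast cells 1 of 5 tested genes rose, the protease gene Cpa3, at 8.10 ± 0.84 at 100 nM and 6.74 ± 0.58 in controls (adjusted p = 0.0283).

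The 2 arrays set aside at 10 nM are given as values. In replicates 4 and 5 Ptprc read 7.54 and 6.92, Lcp1 10.04 and 9.59, Mrc1 9.26 and 8.25, and Cd68 9.03 and 7.94. For Lcp1, Mrc1 and Ptprc both values are below all controls, and replicate 5 was the lower in each. Other marker genes did not share this in replicate 4. That array was above every control for C1qa (11.46), Tyrobp (11.10) and Laptm5 by 1368006_at (10.32). It lay among the controls for Csf1r (9.59), C1qb (10.81) and Laptm5 by 1383658_at (9.97), the probe set that stands for the gene. In replicate 5 these read 10.45, 10.60, 9.47, 8.80, 9.36 and 9.04, each below all controls. Including them left Lcp1 as the only marker gene called at 100 nM against control, with an unchanged difference of -0.54 and an adjusted p of 0.0291.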

How the data were processed

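Expression was measured on 17 Affymetrix 3′ arrays of cultured fetal rat gubernaculum. The deposited log2 values per probe set were made by the authors with GCRMA, per the submitters' processing notes, which corrects background with probe sequence, normalizes arrays to each other and summarises probes. The version and the base of the logarithm are not given in the sources used here; base 2 is the scale GCRMA writes and fits the range of 2.11 to 16.9. Of 31099 probe sets 57 are manufacturer controls. Genes were taken from the platform annotation, which gives 1 gene for 20826 probe sets and several for 436; 20758 of the former matched a gene table by gene ID.

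A probe set was tested when at least 3 arrays read above 2.28, which is the 40th percentile over the 15 kept arrays (18938 probe sets), and all 12 marker probe sets passed. A linear model covered the 3 groups (limma 3.58.1 in R 4.3.3, lmFit and eBayes), with 2-sided tests adjusted by Benjamini-Hochberg over all tested probe sets of each comparison. The scripts were tested on simulated data. The labels call the replicates biological, and p-values therefore reflect variation from culture to culture. All marker genes are named with values; from each wider list the called genes may be named, up to 6 by size of change, and the 8 genes most like the markers were taken by Pearson's r. The marker genes and lists were chosen with earlier results of these data known. Alternatives were the filter (none, or the 60th percentile), renewed quantile normalization, eBayes with trend and robust, 17 arrays, the 2 compared groups alone, replicate number as a block, a division of the replicates as a term or as subsets, an erythroid covariate, other summaries of a gene's probe sets, and leaving out each array. Promoters are RefSeq GRCr8. Array medians of all probe sets lay between 4.28 and 4.45, and 30.5% to 33.7% of probe sets per array lay at the floor, where changes are compressed.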

Additional observations from a re-analysis of the deposited data

Results flagged for a closer look

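Cd74 in control replicate 2 read 2.19, lower than the other 5 controls, of which the nearest read 2.48. It was the only 1 of 24 sets of 6 arrays (12 probe sets at 100 nM and in controls) with an array this far from the rest, chance alone gives about 1 in 20, and these values lie near the floor of 2.11. In the 2 arrays set aside at 10 nM, which no comparison uses, Cd74 averaged 2.98, with 3.48 in replicate 4 and 2.48 in replicate 5, against at most 2.58 in any control.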

How the results depend on the processing

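The number of marker genes called at 100 nM against control, 4 as reported, was 2 with no filter, 1 with all 17 arrays, 0 within replicates 1, 2 and 6, 2 within replicates 3, 4 and 5, 2 with the erythroid covariate and 2 to 4 with 1 array left out. At 10 nM against control and between 100 and 10 nM it was 0 to 1 with 1 array left out and 0 otherwise. The replicate numbers were not shown to pair the samples. Deviations of same-numbered 100 nM and control arrays correlated at r of 0.007 to 0.199, inside the -0.366 to 0.341 of different-numbered arrays. All same-numbered values of 100 nM and control were positive. Same-numbered 10 nM arrays correlated at -0.043, 0.056 and 0.131 with control arrays and at -0.054, -0.071 and 0.186 with 100 nM arrays. These correlations do not settle whether the samples are paired. With the replicate number as a block 3 marker genes were called at 100 nM, Cd68 being lost (adjusted p = 0.0556), and 429 probe sets were called between 100 and 10 nM in place of 271. Over all probe sets, 100 nM against control gave 2065 calls, and 1008 with 17 arrays. It gave 200 within replicates 1, 2 and 6, 1691 within replicates 3, 4 and 5, and 633 with the erythroid covariate. For 10 nM against control 2004 were called, 559 within replicates 1, 2 and 6 and 1020 to 2495 with 1 array left out. Between 100 and 10 nM there were 22 with no filter, 3 with the 2 groups alone, 531 with the replicate division as a term, 134 within replicates 1, 2 and 6, 156 with the erythroid covariate and 3 to 619 with 1 array left out.

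Of the log2 changes that turned sign, none was called. With 17 arrays C1qb (0.18), Mrc1 (0.15) and the second Ptprc probe set (0.19) turned between 100 and 10 nM, and Cd68 (-0.21), Laptm5 by 1383658_at (-0.12) and the second Ptprc probe set (-0.45) at 10 nM against control. Within replicates 1, 2 and 6 Cd68 at 10 nM was -0.12 and Cd74 at 100 nM -0.028, and Cd74 was -0.47 with the erythroid covariate. Csf1r at 10 nM was 0.16 with the replicate block, 0.032 with the division term and 0.012 with the covariate, and Laptm5 by 1383658_at was -0.0034 after renewed quantile normalization. With 1 array left out, the ranges that crossed 0 were -0.20 to 0.085 for C1qb between the doses and -0.042 to 0.15 for Cd74 at 100 nM. At 10 nM they were -0.14 to 0.18 for Csf1r, -0.30 to 0.039 and -0.048 to 0.16 for Laptm5 by 1368006_at and 1383658_at, -0.12 to 0.22 and -0.30 to 0.081 for Ptprc by 1370603_a_at and 1390798_at, and -0.21 to 0.050 for Tyrobp. The cause was not tested in any of these. Cd74 and the second Ptprc probe set did not reach the stricter filter, and replicates 3, 4 and 5 alone hold only 1 array at 10 nM and gave no comparison with that dose. The number of arrays at 10 nM (3) and signals near the floor, as for Cd74, limit the precision.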
